A study of Mus musculus with 6 samples.

Results

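The testis-specific serine kinases are a small family of protein kinases made almost only in male germ cells after meiosis. The family is described here by the 6 gene rows Tssk1, Tssk2, Tssk3, Tssk4, Tssk5 and Tssk6 out of 34144 gene rows. They were taken by symbol, with earlier results of these data known, and all 6 passed the filter on low counts. RNA was sequenced from testes of 6 mice of the strain C57Bl/6J at 3 months of age. Of these, 3 were wild type and 3 were Nsun7-/-. Nsun7 belongs to a family of RNA methyltransferases, and the comparison asked which transcripts differ when it is disrupted. Each library came from 1 mouse and from the tubules left after removal of the testis capsule, so spermatogonia, spermatocytes, spermatids and somatic cells can all be in it. RNA was depleted of ribosomal RNA. Values of single mice are given below in the order of their labels, mouse 1, 2 and 3, and the Nsun7-/- mice are called knockout. The labels give no description of the Nsun7 allele.

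As background, spermatids switch on the Tssk genes while they reshape from round cells into sperm. TSSK1 and TSSK2 bind the substrate protein TSKS, and male mice lacking both kinases are infertile. TSSK6 is needed for the compaction of sperm DNA, when histones give way to protamines, and it folds with the help of HSP90 and the co-chaperone TSACC. TSSK4 phosphorylates ODF2, a protein of the outer dense fibres of the tail, and TSSK3 is activated by the kinase PDPK1.

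Tssk1 and Tssk2 are a tandem pair on chromosome 16, on the same strand and 714 bases apart in GENCODE M21. Tssk3 lies on chromosome 4, Tssk4 on 14, Tssk5 on 15 and Tssk6 on 8. Tssk1, Tssk2 and Tssk6 have 1 exon each, whereas the main transcripts of Tssk3, Tssk4 and Tssk5 have 2, 4 and 8. Coding lengths, stop codon included, were 1098 bases for Tssk1, 1077 for Tssk2, 807 for Tssk3, 1017 for Tssk4, 1119 for Tssk5 and 822 for Tssk6. Tssk1 and Tssk2 were the closest pair, with 856 identical bases among 1045 aligned (81.9%). The other 14 pairs had 61.4% to 67% of their aligned bases identical.

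The tandem pair also resemble each other just before their start sites. RefSeq promoter windows (build GRCm38.p6) matched 5 of the 6 members, all but Tssk5. The last 72 bases before each start are shown because they carry the element that the pair share. Capitals mark TGACTTCA on either strand, an octamer that differs by 1 base from the cAMP response element TGACGTCA.

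Tssk1, chr16:17894131-17894202, + strand: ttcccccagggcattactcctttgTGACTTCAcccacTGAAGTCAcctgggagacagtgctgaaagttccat
Tssk2, chr16:17898565-17898636, + strand: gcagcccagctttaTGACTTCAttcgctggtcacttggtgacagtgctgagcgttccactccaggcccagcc

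The Tssk1 window holds 2 copies facing opposite ways and the Tssk2 window holds 1. Aligned to each other, the windows had 45 identical bases of 59 (76.3%), and their longest identical run was gacagtgctga, 11 bases. In the 250 bases before each start, searched on both strands, TGACTTCA occurred in 1.31% of 32817 RefSeq windows; it was picked after the sequences had been read. TGANNTCA, which takes in TGACTTCA and TGACGTCA, occurred in 11.9% and among the 5 members in the same pair only. TGACGTCA itself (1.55% of windows) and TATAAA (12.4%) had no match in the 5 windows. The shorter element TGACG, part of TGACGTCA, occurred in 17.7% of windows and in Tssk6 alone among the 5. A match is a description of the letters, not a bound site.

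The likeness of the pair bears on how reads can be assigned. Of the 31-base words in the Tssk2 transcript 87.5% occur in no other gene of GENCODE M21, and of those in the Tssk1 transcript 94.4%. The 2 transcripts share 170 such words. Tssk3, Tssk4 and Tssk5 share none with another gene. Tssk6 shares 345 of its 1305 words with Ndufa13, a respiratory chain gene that overlaps it on the other strand, so 73.6% are its own. Since the counting is not stated to use strand, reads from that overlap cannot be told apart. Tssk1 likewise overlaps Dgcr2 on the other strand, with 34 shared words.

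The libraries held 23480448 to 28558865 estimated counts. The RNA row Rmrp took 33.3%, 22.2% and 15.7% of TPM in wild type, and 17.5%, 12.9% and 11.4% after knockout. TPM is a level corrected for transcript length and scaled to the same sum in every library. A high Rmrp share thus lowers every other TPM, most so in wild-type mouse 1. The same library had the shortest fragments, 154.2 bases against 167.7 to 178.5 in the rest. All 53 markers listed for 9 testis cell types were detected, and none was at 0. Nsun7 itself had wild-type CPM of 36.6, 35.7 and 37.2, against 18, 17.8 and 25.2 after knockout. CPM is the count scaled to a common library size after TMM adjustment. Nsun7 was lower in the knockout and not absent (log2 fold change -0.84, SE 0.15, edgeR quasi-likelihood test, adjusted p = 0.016); it lost this call in 7 of 16 other settings, which included leaving out any wild-type mouse.

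Tssk6 was the most abundant family member by length-corrected level in every library. Wild-type TPM was 365.9, 512.6 and 745.8, and knockout TPM was 504.5, 774.4 and 426.8, which ranked it 127 among 30603 genes with any TPM. Tssk2 was second in every library, with a wild-type TPM of 188 ± 43.5 and a knockout TPM of 243 ± 24.5 (SD, n = 3). Tssk5 was the lowest in every library, at 10.3 ± 3.06 and 12.9 ± 1.6 TPM (SD, n = 3). Between these stood Tssk1 (60.2 ± 9.42 TPM in wild type), Tssk4 (59.9 ± 8.24) and Tssk3 (45.8 ± 13.9), whose wild-type ranges overlapped (SD, n = 3). Tssk1 was above Tssk3 in 6 of 6 libraries, by as little as 69.7 against 69 TPM in knockout mouse 2. Tssk4 changed places with Tssk1 in wild-type mouse 1 and with Tssk3 in knockout mouse 2, so its place between them was not the same in every library. On counts the edgeR fold of knockout over wild type was 1.05 for Tssk2 and 1.03 for Tssk5. Their TPM means are thus not read as a genotype difference.

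The level of Tssk1 rests on the length taken for its transcript. The deposited tables use a transcript of 3700 bases, while RefSeq gives 1451 bases for the gene. The RefSeq length is an alternative chosen after the data were seen. With it and all counts kept, the wild-type mean of Tssk1 would be 166 ± 26.5 TPM (SD, n = 3) in place of 60.2. Whether all those reads fell within the RefSeq transcript was not checked. Tssk1 would then stay below Tssk2, at 0.766 to 0.959 of its TPM over the 6 libraries, and above Tssk3 and Tssk4. In plain counts Tssk1 and Tssk2 were near each other, with 4440 and 4414 in wild-type mouse 1 and 5333 and 6587 in knockout mouse 3. The wild-type ratio of Tssk1 to Tssk2 counts was 1.01, 1.01 and 0.805, and the knockout ratio was 0.944, 0.819 and 0.81. The genotypes overlapped in this ratio.

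Within a library the share of each member in the summed TPM of the 6 genes does not move with Rmrp. It does rest on the deposited transcript lengths. At the RefSeq length the share of Tssk1 would be larger and every other share smaller. Tssk6 held 56.6%, 57% and 63.6% of it in wild type, and 55.3%, 62.5% and 46.2% after knockout. For Tssk2 the wild-type shares were 19.5% to 21.9%, and the knockout shares 20% to 28.7%. The smallest share, that of Tssk5, lay between 1.08% and 1.52% over the 6 libraries. Knockout mouse 3 had the lowest share of Tssk6 and the highest shares of the other 5 members. Shares have a fixed sum, so a low share of Tssk6 by itself raises the others. In CPM that library was the lowest for Tssk1 (172.5) and Tssk4 (54.5).

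**Figure D1:**
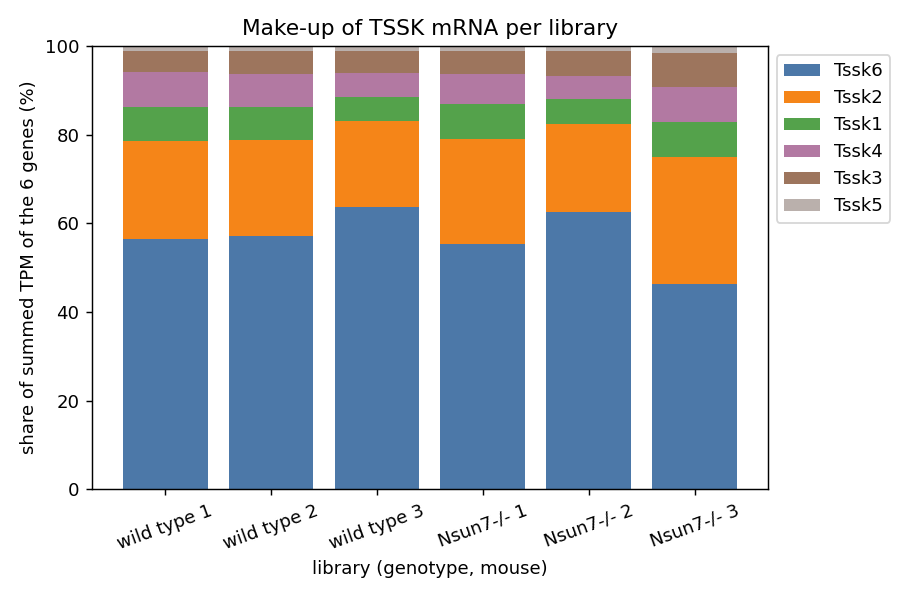
Stacked bars give the share (%) of each TSSK gene in the summed TPM of the 6 genes at the deposited transcript lengths, 1 bar per library. Tssk6 takes 46.2% to 63.6% of each bar and Tssk5 at most 1.52%.

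No Tssk gene passed the test between genotypes. With edgeR's quasi-likelihood test and a Benjamini-Hochberg adjusted p of 0.05, 0 of 6 members were called, where 0.567% of 21002 tested genes were (0.233% higher and 0.333% lower in the knockout). At an unadjusted p of 0.05 the count was also 0 of 6, against 8.39% of all genes, and DESeq2 called 0 of 6, against 1.01%. The CPM of the genotypes overlapped for all 6 members, while 14.3% of tested genes had no overlap. The median log2 fold change of the family was -0.01, beside 0.01 over all tested genes, with 3 of 6 members above 0 where 52.5% of tested genes were. In bulk tissue, fewer cells of a type and less RNA per cell cannot be told apart.

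Tssk1, a TSKS-binding kinase, had wild-type CPM of 201, 216.5 and 178, and knockout CPM of 210.5, 191 and 172.5. The genotypes overlapped almost fully, with a log2 fold change of -0.05 (SE 0.12, 95% interval -0.32 to 0.21, edgeR adjusted p = 0.907). Tssk2, its tandem partner, had 199.9, 215 and 222 CPM in wild type against 223, 233 and 213 after knockout. Its log2 fold change was 0.07 (SE 0.11, interval -0.17 to 0.32, edgeR adjusted p = 0.851), which spans folds from 0.889 to 1.25. Tssk2 thus had the narrowest interval of the family.

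Tssk3, the target of PDPK1, had wild-type CPM of 40.8, 46.6 and 52.7, and knockout CPM of 43.3, 59.2 and 51.6. Its lowest value was in wild-type mouse 1 and its highest in knockout mouse 2, and the log2 fold change was 0.14 (interval -0.17 to 0.44, edgeR adjusted p = 0.766). Tssk4, the ODF2 kinase, had 66.4, 68.5 and 55.8 CPM in wild type against 59.9, 57 and 54.5 after knockout. All 3 knockout values lay below those of wild-type mice 1 and 2 and on both sides of wild-type mouse 3 (log2 fold change -0.15, interval -0.41 to 0.10, edgeR adjusted p = 0.709). For Tssk5, the least abundant member, wild-type CPM was 12.2, 14.8 and 15.8, and knockout CPM 14.1, 15.6 and 14.4, with full overlap (log2 fold change 0.04, interval -0.27 to 0.35, edgeR adjusted p = 0.946).

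Tssk6, the kinase of sperm DNA compaction, had wild-type CPM of 494, 541 and 693, and knockout CPM of 496, 698 and 328. The knockout held both the highest and the lowest library, and the genotypes overlapped. The log2 fold change was -0.18 (SE 0.25, interval -0.75 to 0.38, edgeR adjusted p = 0.829), or folds from 0.594 to 1.31, the widest interval of the 6. Without knockout mouse 3 the log2 fold change was 0.05, and without knockout mouse 2 it was -0.49 (edgeR adjusted p = 0.62). On log2(TPM + 1) the median of all genes itself stood at 0.21, and Tssk1 (0.25), Tssk4 (0.17) and Tssk6 (0.08) had signs opposite to those on counts. With each library centred on that scale they were at -0.01, -0.10 and -0.18, on the same side of 0 as on counts. Over 17 settings the lowest adjusted p of any member was 0.437, for Tssk3 without knockout mouse 1.

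**Figure D2:**
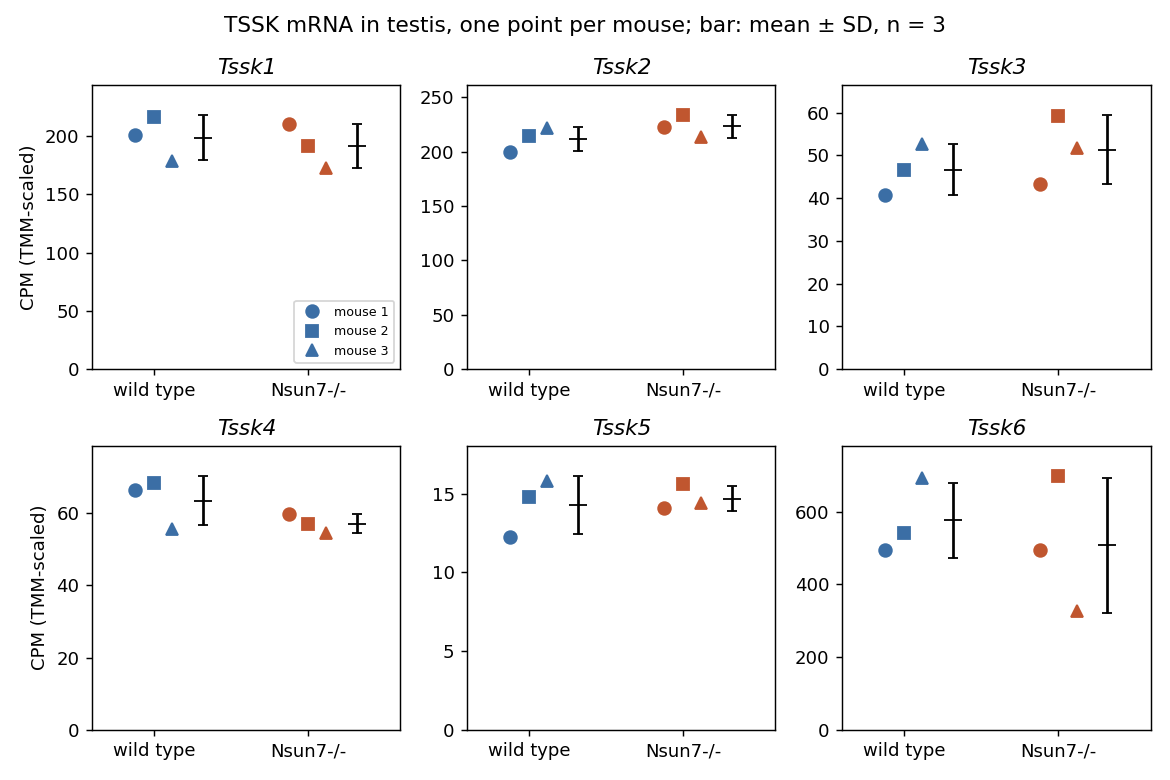
Each panel plots the CPM of 1 TSSK gene (y axis from 0) by genotype, with a point per mouse and the mean ± SD (n = 3) as a bar. The genotypes overlap in every panel, and Tssk6 spreads most, from 328 to 698 CPM in the knockout.

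The members differed in how much they varied between mice. Over the 6 libraries the SD of log2 CPM was 0.40 for Tssk6, above that of 97.4% of 10629 tested genes with a mean of at least 10 CPM. For Tssk2 it was 0.08, above that of 6.25% of the same genes, where the median gene had 0.17. The other 4 lay between 0.13 and 0.20. Tssk6 was high in wild-type mouse 3 and knockout mouse 2 (0.40 and 0.41 above its mean on the log2 scale) and low in knockout mouse 3 (0.68 below).

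Markers of late spermatids were also high or low in these libraries, though not in them alone. The mean of the 9 elongating spermatid markers, centred in the same way, was 0.17 in wild-type mouse 3, 0.09 in knockout mouse 2 and -0.17 in knockout mouse 3. For wild-type mice 1 and 2 and knockout mouse 1 it was 0.07, -0.01 and -0.15. Tssk6 in those libraries was 0.09 below, 0.04 above and 0.08 below its own mean. The summed level of the 9 markers was 8095 to 10772 CPM in wild type, and 7342 to 10167 after knockout. The 5 round spermatid markers had centred means of -0.12 to 0.06 over the 6 libraries. Somatic markers did not move as 1 group. In knockout mouse 3 the 7 Sertoli cell markers were at -0.35 and the 5 peritubular myoid markers at -0.36. Macrophage, Leydig cell and endothelium markers there were at -0.29, -0.06 and 0.17. Leydig cell and macrophage markers were highest in knockout mouse 1, at 0.96 and 0.52. By genotype, 0 of 5 myoid markers had a log2 fold change above 0 (median -0.28) and 0 were called. Of all tested genes 52.5% were above 0 and 0.567% were called. Summed myoid CPM was 387.5 to 463 after knockout and 479 to 517 in wild type. For 3 of the 5 the genotypes did not overlap, against 14.3% of tested genes. All 6 Leydig cell markers were above 0 (median 0.76), and 1 was called, the steroid enzyme gene Hsd3b1 (1.17, edgeR adjusted p = 0.00345). For 2 of the 6 the genotypes did not overlap. All 5 macrophage markers were above 0 too (median 0.24, 0 called). Of the 7 Sertoli cell markers 1 was above 0 (median -0.15, 0 called). No germ cell marker was called. Above 0 were 3 of 6 spermatogonia markers (median -0.05) and 2 of 6 pachytene spermatocyte markers (-0.07). So were 3 of 5 round spermatid markers (0.08) and 4 of 9 elongating spermatid markers (-0.18). At an unadjusted edgeR p of 0.05 these lists had 3, 0, 1 and 2 passing, where 8.39% of all genes did. The genotypes did not overlap for 4 of the spermatogonia markers and 1 in each other germ cell list. Ndufa13, which shares sequence with Tssk6, ranged over 44.2 to 64.5 CPM in wild type and 32.9 to 50.1 after knockout, also lowest in knockout mouse 3. It was highest in wild-type mouse 1, where Tssk6 was 0.09 below its mean, and stood at 48.4 CPM in knockout mouse 2, where Tssk6 was highest. What part these markers and Ndufa13 have in the spread of Tssk6 was not tested.

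**Figure D3:**
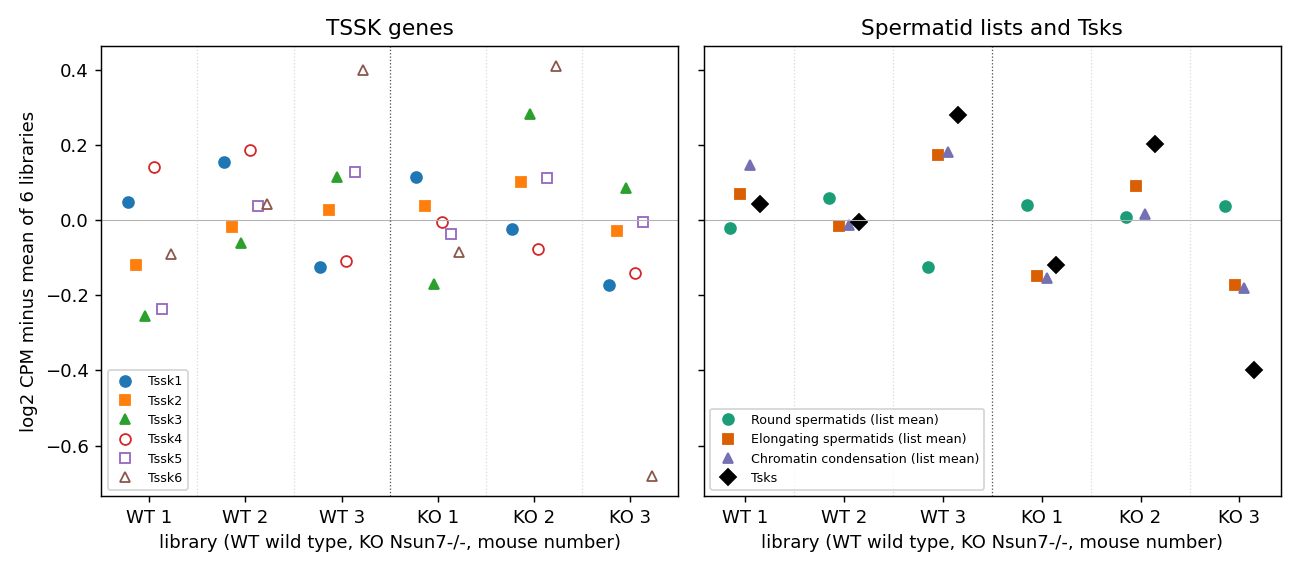
Points give log2 CPM minus the mean of the 6 libraries (y axis) for each library (x axis), for the 6 TSSK genes on the left and for Tsks and 3 list means on the right. Tssk6 and Tsks are both highest in wild-type mouse 3 and knockout mouse 2 and lowest in knockout mouse 3. Of the partners not drawn, Tsacc was highest in wild-type mouse 2 and Odf2 in knockout mouse 3. The elongating spermatid and chromatin condensation lists share Tnp1, Tnp2, Prm1 and Prm2.

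The 6 genes did not share 1 profile over the libraries. Likeness was taken as the root mean square difference of centred log2 CPM over the 6 libraries, a description that shared depth and tissue make-up can set. The closest members were Tssk1 and Tssk4 (0.07), then Tssk2 and Tssk5 (0.07) and Tssk3 and Tssk5 (0.10). The tandem neighbours Tssk1 and Tssk2 were further apart (0.14), and Tssk2 ranked 4355 among the 21001 other tested genes by nearness to Tssk1. Tssk6 was 0.33 or more from each of the others. Among 9985 named genes of at least 10 CPM, those nearest the mean profile of the family were Asb8 (0.01), Zfp541 (0.02), Vdr (0.03), Nup214 (0.03) and Bcas3 (0.03).

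The transcript tables hold 14 annotated transcripts of the 6 genes. Of these, 11 had counts in every library and 2 had none in any. Tssk1, Tssk2, Tssk3 and Tssk6 have 1 each, so their gene and transcript values are the same measurement. No member transcript passed edgeR's test among 58773 transcripts (0 called, and 0 at an unadjusted p of 0.05), where 0.0272% of all were called and 4.76% passed unadjusted. DESeq2 also called 0.

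Tssk4 was divided over 6 detected transcripts. Tssk4-207, of 1273 bases, held 58.1%, 58.6% and 53.8% of the estimated counts of the gene in wild type, against 58.1%, 61.3% and 61.6% after knockout. Tssk4-204, of 1243 bases, came next with wild-type and knockout shares of 26.6% ± 4.62 and 24.2% ± 1.28 (SD, n = 3). Tssk4-201, of 1420 bases, held 6%, 8.73% and 5.45% in wild type, against 5.75%, 2.16% and 3.69% after knockout. Knockout mouse 1 lay within the wild-type range, and the difference gave p = 0.2 in a two-sided exact permutation test, where 0.1 is the smallest that 3 against 3 mice allow. As counts, Tssk4-201 had a log2 fold change of -0.97 (interval -2.02 to 0.08, edgeR adjusted p = 0.932). The transcript marked for nonsense-mediated decay, Tssk4-205, held 1.24% to 3.28% in single libraries.

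A large share of the Tssk5 counts was assigned to a transcript with a retained intron. Tssk5-203, the retained-intron form of 2055 bases, held 37.6%, 39.1% and 38.3% in wild type, against 35.4%, 30.1% and 46.3% after knockout. The rest went to the coding form Tssk5-201. The knockout libraries spread to both sides of the wild-type ones (two-sided exact permutation p = 0.8, with 3 mice in each genotype). Assignment between forms of 1 gene is an estimate, and its uncertainty is not in these tables.

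**Figure D4:**
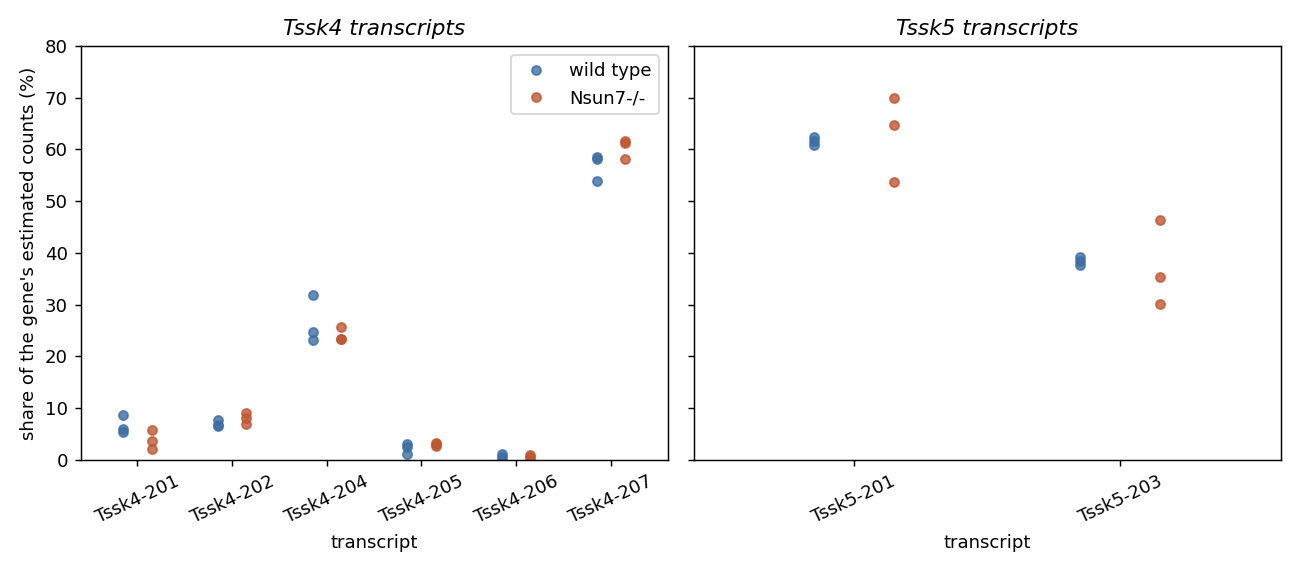
Points give the share (%) of the gene's estimated counts held by each detected transcript of Tssk4 (left) and Tssk5 (right), 1 point per mouse and colour by genotype. Tssk5-203 spans 30.1% to 46.3% in the knockout and 37.6% to 39.1% in wild type.

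The genes known to work with the kinases did not pass the test either. Of 10 partners and substrates 0 were called in either direction (edgeR adjusted p of 0.05, background 0.567%). At an unadjusted p of 0.05 1 passed, against 8.39% of all genes, and 0 were called with DESeq2, against 1.01%. Their median log2 fold change was -0.04, with 5 above 0. Tsks, the TSSK substrate that binds TSSK1 and TSSK2, had wild-type CPM of 364, 352.5 and 429, and knockout CPM of 325, 407 and 268. As for Tssk6, wild-type mouse 3 and knockout mouse 2 were highest and knockout mouse 3 lowest (log2 fold change -0.20, interval -0.53 to 0.13, edgeR adjusted p = 0.71). Tsacc, the TSSK6 co-chaperone, had 48.2, 49.7 and 42.7 CPM in wild type against 48.9, 38.8 and 31.8 after knockout. Knockout mouse 1 lay among the wild-type values (log2 fold change -0.23, interval -0.56 to 0.09, edgeR adjusted p = 0.67).

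Among the chaperones and the phosphatase the values were closer to 0. The log2 fold changes were -0.11 for Hsp90aa1 and 0.03 for Hsp90ab1, the genes of cytosolic HSP90, and 0.05 for Ppp1cc, the PP1 catalytic subunit found with TSKS and TSSK1. Pdpk1, the kinase upstream of TSSK3, was at 0.18 (edgeR adjusted p = 0.718). Creb1, whose product TSSK4 can phosphorylate, stood at 0.03 and Spag16, an axoneme protein phosphorylated by TSSK2, at -0.17. The intervals of all 6 included 0.

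Of the structural substrates, Odf2 had wild-type CPM of 552, 567 and 812, and knockout CPM of 567, 821 and 981. Wild-type mouse 3 lay just below the upper 2 knockout values, and knockout mouse 1 was as low as wild-type mice 1 and 2 (log2 fold change 0.30, interval -0.15 to 0.74, edgeR adjusted p = 0.684). H2ax encodes the histone variant whose phosphorylation is tied to TSSK6. Its wild-type CPM was 5109, 3666 and 3054, against 3272, 3062 and 2064 after knockout. Wild-type mouse 1 was highest and knockout mouse 3 lowest, the log2 fold change was -0.49 (interval -0.95 to -0.04), and the edgeR adjusted p of 0.567 missed the threshold. The log2 fold change was -0.27 without wild-type mouse 1 and -0.32 without knockout mouse 3, each with an unadjusted edgeR p above 0.05. Leaving out any other mouse gave -0.65 to -0.55, and DESeq2 gave -0.50 (adjusted p = 0.376). On log2(TPM + 1), where the median gene stood at 0.21, it was -0.17. Once each library was centred it was -0.44, and both TPM values had an unadjusted limma p above 0.05. H2ax, Odf2, Pdpk1 and Spag16 overlap other annotated genes on the opposite strand, with which counts may be shared if counting ignored strand. Tsacc, Ppp1cc, Pdpk1 and Spag16 overlap annotated genes on the same strand, with which counts may be shared in either case. These overlaps are of whole gene spans, introns included. Whether the transcripts share sequence was not checked for the partners.

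**Figure D5:**
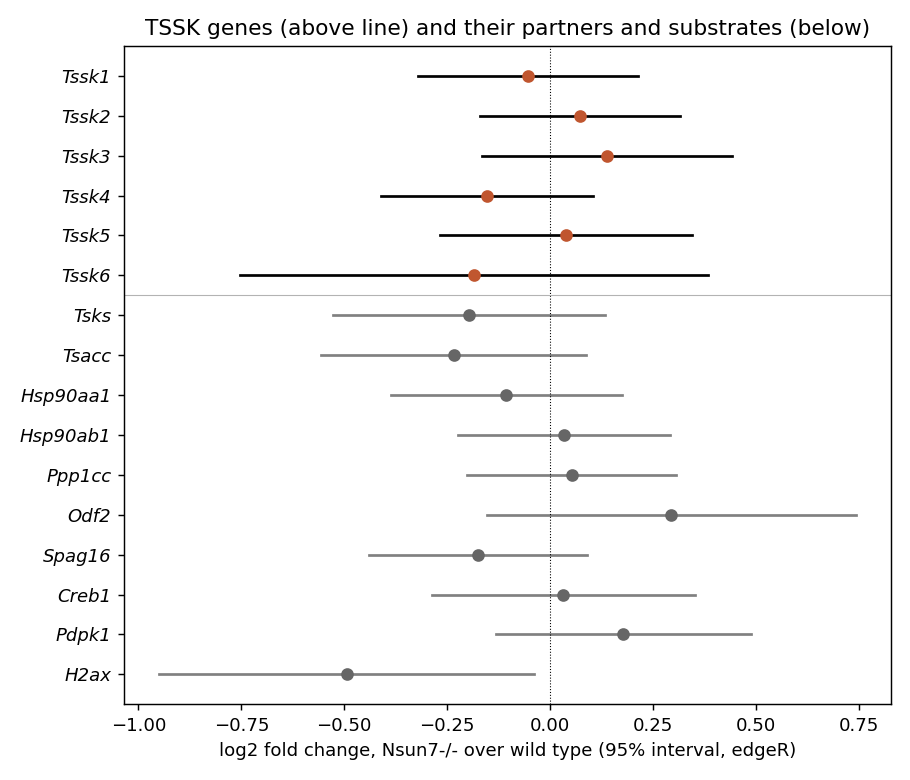
Dots give the log2 fold change of the knockout over wild type (x axis) and lines its 95% interval from edgeR, for the 6 TSSK genes above the line and 10 partners and substrates below. The interval of H2ax alone, -0.95 to -0.04, leaves out 0, before any adjustment for the number of genes.

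In the chromatin condensation list, 11 genes of the step for which TSSK6 is needed, 0 were called by edgeR and 0 by DESeq2, and 4 passed unadjusted, against 0.567%, 1.01% and 8.39% of all tested genes. The median log2 fold change was -0.22 with 3 above 0, where 52.5% of all were. The smallest p were those of the testis linker histone H1f6 at -0.44 (wild type 3752 ± 435 CPM, knockout 2764 ± 486 CPM, SD, n = 3; edgeR adjusted p = 0.461) and of Prm3 at -0.53 (edgeR adjusted p = 0.479). Of 6 spermatid transcription regulators 0 were called by edgeR or DESeq2 and 0 passed unadjusted (median 0.10). The closest were Taf7l, a germ cell TFIID subunit, at -0.25 (edgeR adjusted p = 0.614), and Rfx2 at -0.22 (edgeR adjusted p = 0.65). Both were at 0.06 on log2(TPM + 1), below the median gene at 0.21, and at -0.21 once each library was centred. Among 10 other male germ cell kinases 0 were called by edgeR or DESeq2 and 0 passed unadjusted (median 0.02). Mak stood at 0.24 and Csnk2a2, the testis form of the casein kinase 2 catalytic subunit, at 0.16 (edgeR adjusted p = 0.65 and 0.729).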

How the data were processed

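The submitters' processing notes name kallisto 0.50.1, which the authors ran to estimate transcript abundance, and the build mm39. Which annotation and strand setting they used is not given in the sources here. They deposited estimated counts and TPM per transcript for each library, and tables of gene counts (whole numbers, not depth-corrected) and TPM for the series, per the file headers. Every sample column was mapped, with 0 left over.

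Gene counts and rounded transcript estimates entered edgeR 4.0.16 under R 4.3.3 (TMM, filterByExpr with minimum count 10 and minimum total 15, robust quasi-likelihood test, genotype as the sole term; biological coefficient of variation 14.9%), adjusted over all features, with an adjusted p threshold of 0.05. SE is the log2 fold change over the square root of F. Alternatives were DESeq2 1.42.0, limma 3.58.1 on voom and log2 TPM values, other scalings and filters, a replicate block and leaving out each mouse. Intervals cover the spread between these mice only.

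Named are Nsun7, the members, their transcripts and partners, the 2 smallest p of each other list, and the 5 nearest profiles. Members and lists were chosen with earlier results of these data known. Transcript names, overlaps and shared words came from GENCODE M21 (GRCm38), so gene coordinates on mm39 are not printed.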

Additional observations from a re-analysis of the deposited data

How the results depend on the processing

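The counts of called Tssk genes, Tssk transcripts, partners, transcription regulators and other kinases were 0 in all settings run. The chromatin condensation list had 1 call, Tnp1 (-0.74, adjusted p = 0.00593), with the mouse number as a replicate block. The block gave 331 called genes against 119. Deviations of same-numbered mice correlated at 0.177, -0.00476 and 0.199, and those of differently numbered mice at -0.235 to 0.0565. The labels state no pairing, and the numbers were not taken to pair the mice. Called genes over the whole table were 180 with no low-count filter, 213 with DESeq2, 26 (17 higher, 9 lower) and 34 (22 and 12) on log2(TPM + 1) and log2(TPM + 0.1), and 56 (19 and 37) on centred TPM, against 49 higher and 70 lower; leaving out 1 mouse gave 67 to 166, the fewest for wild-type mouse 1 and 78 each for wild-type mice 2 and 3.

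On log2(TPM + 1) and log2(TPM + 0.1), which moved the median gene by 0.21 and 0.30, values turned positive for Tssk1 (0.25, 0.26), Tssk4 (0.17, 0.17), Tssk6 (0.0844, 0.0845), Tsks (0.10, 0.10), Tsacc (0.13, 0.13), Hsp90aa1 (0.24, 0.24), Spag16 (0.0919, 0.0935), Taf7l (0.0574, 0.0613) and Rfx2 (0.0586, 0.0588). On centred TPM these 9 genes were below 0, as on counts, and Pdpk1 turned to -0.0550. Leaving out 1 mouse gave ranges that crossed 0 for Tssk1 (-0.137 to 0.0106), Tssk5 (-0.0695 to 0.117), Tssk6 (-0.485 to 0.0454), Hsp90ab1 (-0.0214 to 0.0876), Creb1 (-0.0854 to 0.159) and Pdpk1 (-0.0126 to 0.276). Nsun7 lost its call on log2(TPM + 1) (-0.46), log2(TPM + 0.1) (-0.50) and centred TPM (-0.72), and when a wild-type mouse or knockout mouse 2 was left out (-0.87 to -0.76, adjusted p 0.0556 to 0.093). The causes were not tested.

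Without Rmrp the wild-type mean TPM of all 6 members was higher. It was 78.9 for Tssk1, 244 for Tssk2, 59.2 for Tssk3, 78.6 for Tssk4, 13.3 for Tssk5 and 698 for Tssk6. At the RefSeq length, with all counts and Rmrp kept, Tssk1 was at 166. With 3 mice per genotype, the folds inside the 95% interval ran from 0.889 to 1.25 for Tssk2, the narrowest, and from 0.594 to 1.31 for Tssk6, the widest.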
